A study of Mus musculus with 18 samples.

Results

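The sites described here are autosomal CpGs that lie in CpG-dense sequence and were methylated in wild-type oocytes of the early antral follicle stage. A CpG was taken as dense when at least 15 CpG positions, itself included, were listed within 100 bp on either side in any of the 18 libraries. It had to be read at least 5 times in at least 2 early antral wild-type oocytes, and its mean methylation level over those oocytes had to be at least 70%. The rule found 306 CpGs, called members below, among 1207879 CpGs listed in all. Of 9776 CpG-dense autosomal sites with enough reads, 306 (3.13%) were members, 8629 (88.3%) were at 10% or below and 841 (8.60%) lay between. The early antral wild-type values chose the members, so each of those 4 oocytes was scored on members chosen from the other 3 oocytes.

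Single mouse oocytes were profiled by reduced representation bisulfite sequencing, in which MspI fragments are read, so that CpG-rich stretches are over-represented. Bisulfite leaves methylated cytosines as they are and converts the others, and the share of unconverted reads at a CpG is its methylation level. There were 2 knockout (KO) and 4 wild-type (WT) oocytes of early antral follicles (EAF), and 5 KO and 7 WT oocytes of secondary follicles (SF). The labels give the donors as Sall4fl/fl;Zp3-Cre or Sall4fl/fl females, so all donors carry floxed Sall4 alleles, and Zp3-Cre is active in growing oocytes. Sall4 encodes a zinc finger transcription factor. The listed ages, P12.5 and P17.5, are not tied to a stage. Since the labels tie no oocyte to an animal, a group was taken as 1 sample. No test was made for this reason, and SDs and ranges describe oocytes. SF WT replicate 3 had the lowest sum of counts over CpGs, 464501, and SF KO replicate 2 the highest, 6518646, and the median count at a member that was read ran from 7 to 51. SF KO replicate 1 was the highest of its group in most of the measures below.

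In mammals, the oocyte genome is sparsely methylated when growth begins and gains methylation while the follicle enlarges, through the de novo enzyme DNMT3A and its cofactor DNMT3L. Much of that methylation is laid down across transcribed genes. CpG islands mostly remain unmethylated, and the islands that do become methylated include the maternal imprints. Retrotransposons are a second class of CpG-rich sequence that can be methylated in the female germ line. In the mouse, tandem CpG-rich monomers are known at the 5′ ends of LINE-1 elements.

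The distances between neighbouring CpGs around 254 of the 306 members, in 59 of 75 regions, formed patterns that recurred throughout the genome, and these are called the shared-spacing family below. The members' own bases are not shown, since no genome of the build used by the files, mm9, was at hand. The RefSeq promoters of GRCm38.p6, each 250 bases before to 50 bases after a gene's start, were searched for the spacing patterns described further below. The other recurring patterns were not looked up in them. Of 32851 promoters, 2 (0.00609%) carried 1 of the patterns looked up in their CpG positions. They are the promoters of the predicted genes Gm5636, at chrX:47436492-47436791 on the minus strand, and Gm30645, at chr7:10471267-10471566 on the minus strand. They are shown because they display a sequence in which 1 such CpG pattern occurs, called 9-34 further below. That pattern held 6 of the 306 members, against 87 and 65 in the 2 other patterns described there. The 2 promoters are not members, and the capitals mark every CpG.
Gm5636: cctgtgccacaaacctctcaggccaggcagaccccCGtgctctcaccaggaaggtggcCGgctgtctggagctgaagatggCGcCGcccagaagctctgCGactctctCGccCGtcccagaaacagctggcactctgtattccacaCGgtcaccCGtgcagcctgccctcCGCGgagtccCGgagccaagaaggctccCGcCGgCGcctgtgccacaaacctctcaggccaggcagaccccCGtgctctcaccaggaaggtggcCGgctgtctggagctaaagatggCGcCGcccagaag
Gm30645: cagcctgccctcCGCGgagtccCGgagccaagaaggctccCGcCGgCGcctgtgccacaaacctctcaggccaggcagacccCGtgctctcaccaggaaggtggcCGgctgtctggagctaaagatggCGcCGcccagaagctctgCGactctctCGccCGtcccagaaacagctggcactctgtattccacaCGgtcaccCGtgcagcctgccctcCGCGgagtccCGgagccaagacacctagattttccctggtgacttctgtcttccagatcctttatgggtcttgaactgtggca

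The Gm5636 window holds 19 CpGs and repeats itself at a distance of 206 bp. Over the 94 bases that overlap at that distance, 93 were identical. The Gm30645 window holds 18 CpGs, and its opening stretch, which includes the first CpGs, recurs at a distance of 205 bp. The repeat breaks off there and the bases after it differ, so that 47 of the 95 overlapping bases were identical.

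The members were less methylated in KO than in WT oocytes at both stages. In the EAF KO oocytes the mean level over members was 52.2% and 58.3%. In the EAF WT oocytes it was 79.5%, 77.5%, 79.5% and 68.6%, so both KO oocytes lay below all 4 WT oocytes. The SF KO oocytes had 70.7%, 49.9%, 46.7%, 55.1% and 47.9%. The SF WT oocytes had 71.2%, 63.4%, 60.5%, 70.6%, 59.0%, 72.1% and 78.1%. Of the SF KO oocytes, replicate 1 lay within the WT range and the other 4 lay below all SF WT oocytes.

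The group means were 55.3% ± 4.32 (SD, n = 2 oocytes) in EAF KO and 76.3% ± 5.21 (SD, n = 4 oocytes) in EAF WT, a KO minus WT difference of -21.0 percentage points. At the SF stage they were 54.1% ± 9.86 (SD, n = 5 oocytes) in KO and 67.8% ± 6.99 (SD, n = 7 oocytes) in WT, a difference of -13.8 points. Without SF KO replicate 1 the SF difference was -17.9 points. All 5 SF KO libraries had higher count sums than all 7 SF WT libraries, and the part of depth in the SF difference was not tested. With CpGs weighted by their reads, the differences were -19.9 points at the EAF and -9.74 points at the SF stage. With at least 10 reads required per CpG they were -20.7 and -9.89 points, and over CpGs read in every oocyte compared -20.5 and -5.93 points. The direction was thus the same in these settings, but the SF difference was smaller.

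Between stages, the members stood 8.44 points higher in EAF WT than in SF WT oocytes. The rule chose sites that are high in EAF WT, so it favoured this direction, and that of the EAF genotype difference. Leaving out the oocyte that is scored does not remove this, and both values are described only. The 2 KO groups differed by 1.21 points, and this value changed sign when single oocytes were left out, with a range of -1.84 to 5.38 points. The contrast of stage and genotype, EAF difference less SF difference, was -7.23 points and has the same limit. Leaving out SF KO replicate 1 gave -3.06 for that contrast. Leaving out EAF KO replicate 1 gave -4.17, and leaving out EAF WT replicate 4 gave -12.9.

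**Figure D1:**
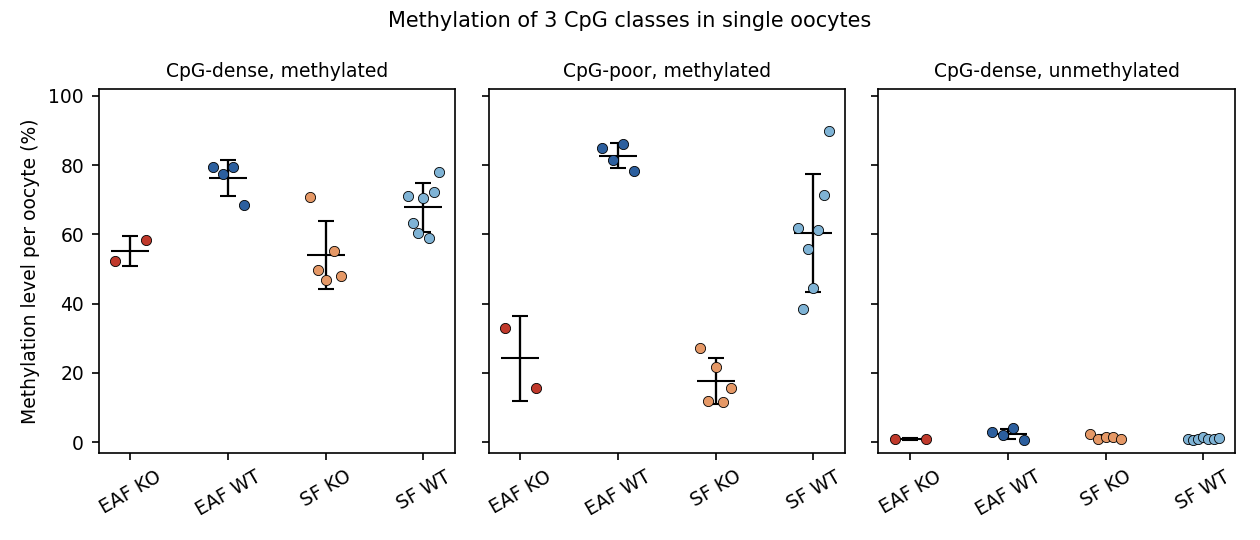
Mean methylation level per oocyte (%, vertical axis) of the members, of CpG-poor methylated sites and of CpG-dense unmethylated sites, by group. Points are oocytes, bars are means and whiskers SDs over oocytes. The KO oocytes lie between 46.7% and 70.7% at the members and at 32.9% or below at the CpG-poor sites.

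Many members had intermediate levels, in the shared-spacing family more than outside it, as given further below. In EAF KO oocytes, on average 71.3% of the members read in an oocyte lay between 20% and 80%, against 46.2% in EAF WT oocytes. In SF KO oocytes 70.7% lay in that range, against 59.6% in SF WT oocytes. The SF oocytes overlapped, with 48.3% to 78.2% in KO and 41.7% to 81.7% in WT. The median count at a member that was read was 30 to 51 in SF KO and 7 to 29 in SF WT oocytes. The part of depth in these shares was not tested. Highly methylated members, at 80% or above, made up 17.7% in EAF KO and 51.8% in EAF WT oocytes, and 16.2% in SF KO and 34.4% in SF WT oocytes. Members at 20% or below were the minority in each group. They made up 5.43% and 16.6% in the 2 EAF KO oocytes, 2.02% on average in EAF WT, 13.1% in SF KO and 6.05% in SF WT oocytes.

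CpG-poor sites chosen by the same read and level rule, with 1 to 4 CpGs within 100 bp, are the set farthest below the members in density. Methylated sites of densities nearer to that of the members are given further below. The 1079 such sites averaged 24.2% ± 12.2 in EAF KO and 82.8% ± 3.51 in EAF WT oocytes. They averaged 17.6% ± 6.66 in SF KO and 60.5% ± 17.1 in SF WT oocytes. Here 71.0% of the sites read in an EAF KO oocyte were at 20% or below, far above the share of members in that range. The KO minus WT difference at members minus that at CpG-poor sites was 29.2 points at the SF stage and ran from 25.96 to 33.0 points when oocytes were left out in turn. Taking CpGs with 1 read or more gave 17.0 points, a minimum of 10 reads gave 40.6 points, and it was 17.8 points over members outside the shared-spacing family. At the EAF stage it was 37.5 points, but it was -8.63 points with sites read in at least 3 EAF WT oocytes, 2.30 points over CpGs read in every oocyte compared and 20.4 points without EAF WT replicate 3. The size of the gap between the 2 sets therefore depended on which CpGs were used at both stages, and at the EAF stage its sign did as well.

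CpG-dense sites at 10% or below in EAF WT averaged 0.920% in EAF KO, 2.38% in EAF WT, 1.41% in SF KO and 1.02% in SF WT oocytes. Those 8629 sites thus stayed near 0 in the 4 groups, where the members averaged above 50%. The 2 sets met the same density limit but were not matched in density. Of the 9776 dense sites with enough reads, 4294 had 20 or more CpGs within 100 bp, and only 3 of these were members.

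Across classes of density, the share of sites read that met the level rule was 15.6% with 1 to 4 CpGs within 100 bp, 13.7% with 5 to 9, 11.4% with 10 to 14, 5.53% with 15 to 19 and 0.0699% with 20 or more. Members therefore sit at the dense end of a scale on which methylated sites became rarer with density. Among methylated sites of the classes from 1 to 4 up to 15 to 19 CpGs, the EAF KO minus EAF WT difference was -58.5, -33.3, -20.2 and -20.9 points. The SF KO minus SF WT difference was -42.9, -13.8, -11.2 and -13.7 points. The values of the 2 densest classes were close to each other. Members had 15 CpGs in 197 cases and 16 in 92 cases, and 3 members had 20 or more.

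Near the limits of the rule, 61 members had an EAF WT mean between 70% and 75%. They averaged 37.9% in EAF KO, 43.1% in SF KO and 59.3% in SF WT oocytes. The 76 dense CpGs just outside, between 65% and 70%, averaged 42.4% in EAF KO, 44.0% in SF KO and 53.1% in SF WT oocytes. Of the members, 289 had 15 or 16 CpGs, and averaged 55.0% in EAF KO, 54.6% in SF KO and 68.0% in SF WT oocytes. The 694 CpGs of the same level with 13 or 14 CpGs averaged 58.6% in EAF KO, 55.7% in SF KO and 65.4% in SF WT oocytes.

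Counted CpG by CpG at the SF stage, 265 members were read in at least 2 oocytes of each genotype. Of these, 11 had a KO mean lower by 50 points or more, which is 4.15% against 5.21% of all autosomal CpGs so read and 9.66% of CpGs of any density that met the level rule. The share of members with so wide a difference was thus near that of all CpGs. Only 2 members (0.755%) were higher in KO by 50 points or more, against 1.66% of all CpGs and 1.16% of methylated CpGs of any density. A lower KO mean of any size was seen at 225 of the 265 members (84.9%), against 29.2% of all autosomal CpGs and 68.6% of CpGs of any density that met the level rule. The median KO minus WT difference was -10.2 points over members and -7.82 points over methylated CpGs of any density. It was 0 over all CpGs, 25210 of which had equal means. The count of 11 was 5 without SF WT replicate 3, 7 without SF WT replicate 1, 3 without EAF WT replicate 3 and 2 without EAF WT replicate 4.

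At the EAF stage the rule used the WT values, so the counts describe the chosen sites only. Of 186 members read in at least 2 oocytes of each genotype, 17 (9.14%) were lower in KO by 50 points or more, against 2.26% of all autosomal CpGs and 21.4% of methylated CpGs of any density. None was higher in KO by 50 points or more (0%), against 0.452% of all CpGs and 0% of methylated CpGs of any density. A lower KO mean of any size was seen at 184 (98.9%), against 67% of all CpGs and 89.6% of methylated CpGs of any density.

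The members were read far more deeply and in more oocytes than unmethylated CpG-dense sites and CpG-poor methylated sites. A member was read in a median of 12 of the 14 oocytes outside the EAF WT group, a CpG-dense site at 10% or below in 3 and a CpG-poor methylated site in 2. Counts summed over the 18 libraries had a median of 296.5 per member, 123 per unmethylated dense site and 63 per CpG-poor methylated site. The intermediate dense sites were like the members, with 11 oocytes and 308 counts.

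To compare sequence layout without a genome, the distances between successive listed CpGs were used. For each CpG, every run of 6 successive distances that held it was looked up across all chromosomes, in both directions. Only runs with each distance at most 100 bp were used. A run seen at least 20 times was found for 260 of the 306 members (85.0%). The same was true of 73.8% of the intermediate dense sites, 2.63% of the unmethylated dense sites and 0.649% of the CpG-poor methylated sites. The median CpG-poor site lay in 0 runs of such short distances, so its class is low by its sparseness and gives no contrast. The run around a member occurred a median of 302 times. With runs of 8 distances the shares were 82.4%, 72.7%, 0.753% and 0.556% in the same order. The level rule does not use CpG distances. The rule also required reads in at least 2 EAF WT oocytes, and members were read more deeply than unmethylated dense sites. The classes were not matched in density or reads, and the part of either in these shares was not tested.

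**Figure D2:**
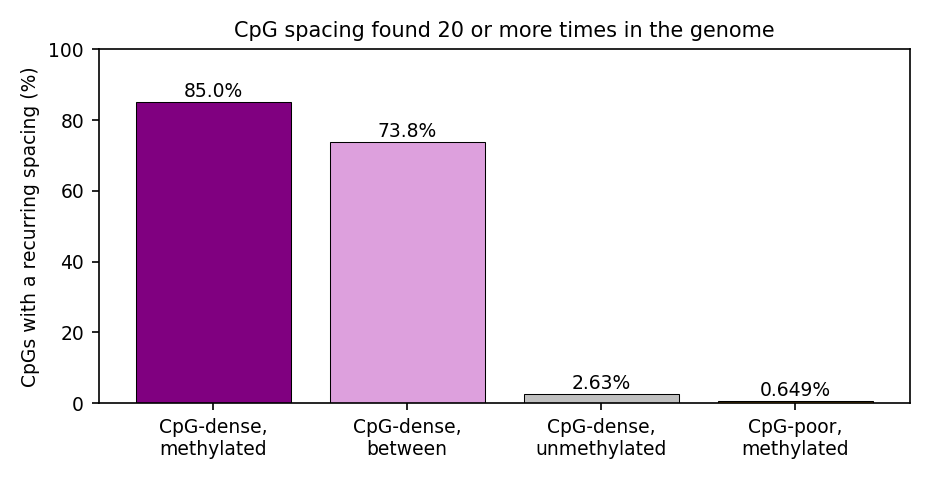
Share of CpGs (%, vertical axis) lying in a run of 6 successive CpG distances that was found at least 20 times in the genome, for the members (85.0%), intermediate dense sites (73.8%), unmethylated dense sites (2.63%) and CpG-poor methylated sites (0.649%). The members and the intermediate dense sites mostly lie in recurring layouts. Only distances of at most 100 bp were used, so the CpG-poor share is low by the sparseness of those sites.

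Regions were joined where they shared a run of 8 distances seen at least 2 times. The largest group so joined, the shared-spacing family, comprised 254 CpGs in 59 regions. The other 52 members lay in 16 regions. Some of those also held recurring runs of 6 distances, seen up to 44 times. Reads from near-identical copies cannot be assigned to 1 locus with certainty, so a level in the family may be an average over copies. The part of this in the intermediate levels was not tested. Family members averaged 55.2% ± 4.10 in EAF KO and 76.7% ± 5.44 in EAF WT oocytes, and 56.1% ± 11.2 in SF KO and 68.7% ± 6.22 in SF WT oocytes. The other members averaged 54.8% ± 11.5 in EAF KO and 66.7% ± 28.4 in EAF WT oocytes, and 30.9% ± 14.5 in SF KO and 56.1% ± 24.3 in SF WT oocytes. Those means rest on few CpGs per oocyte, between 3 and 12 in EAF KO, 2 and 5 in EAF WT, 12 and 35 in SF KO and 2 and 15 in SF WT. The share of CpGs between 20% and 80% was 73.4% in EAF KO, 46.4% in EAF WT, 75.6% in SF KO and 62.2% in SF WT oocytes in the family. Outside the family it was 16.7%, 30.8%, 11.1% and 5.95% in those groups.

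Within the family, 3 forms of the spacing were followed over all autosomes, whatever their level. They were chosen after the data were seen, by their CpG distances and not by methylation. In the form called 9-11, 7 successive CpGs lie 15, 9, 4, 11, 23 and 8 bp apart. In the form called 7-11 the distances are 15, 7, 4, 11, 23 and 8 bp, and in the form called 9-34 they are 15, 9, 4, 34, 8 and 16 bp. The 9-34 form is the one present in the 2 promoter windows shown above.

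Copies of the 9-11 and the 7-11 form mostly stood at a fixed distance from each other, and copies of the 9-34 form did so in part. The 9-11 form occurred 106 times with 742 CpGs, and 53 of the 54 pairs of copies within 400 bp in the same direction stood 206 bp apart. The 7-11 form occurred 243 times with 1701 CpGs, and 74 of 76 such pairs stood 204 bp apart. The 9-34 form occurred 205 times with 1435 CpGs, and 50 of 97 such pairs stood 206 bp apart. Members were unevenly spread over the forms, with 87 of the 742 CpGs of the 9-11 form, 65 of the 1701 of the 7-11 form and 6 of the 1435 of the 9-34 form.

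The 9-11 form was more methylated than the 7-11 form in each of the 18 oocytes. Over all its CpGs the 9-11 form had 56.6% and 68.6% in EAF KO oocytes, against 74.5% to 76.9% in the 4 EAF WT oocytes. In SF KO oocytes it had 76.6%, 58.9%, 39.9%, 62.8% and 55.3%, and in SF WT oocytes its levels ran from 52.9% to 78.3% with a mean of 65.3% ± 8.05. The EAF genotypes did not overlap and the SF genotypes did.

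The 7-11 form had 21.1% and 40.9% in EAF KO oocytes, against 70.2%, 62.9%, 63.7% and 51.3% in EAF WT oocytes. In SF KO oocytes it had 56.7%, 26.6%, 26.2%, 33.2% and 27.2%. In SF WT oocytes it had 49.6%, 49.4%, 28.5%, 50.3%, 44.4%, 57.8% and 53.9%. The EAF genotypes again did not overlap. The SF genotypes overlapped, through KO replicate 1 and the shallow WT replicate 3. The other SF KO oocytes lay below the other SF WT oocytes, a split made after the values were seen.

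The 9-34 form averaged 41.2% ± 4.97 in EAF KO and 53.7% ± 8.43 in EAF WT oocytes, and 42.4% ± 14.7 in SF KO and 45.1% ± 7.71 in SF WT oocytes. It was below the 9-11 form in all 18 oocytes. It was above the 7-11 form in each of the 7 KO oocytes, but in only 1 of 4 EAF WT and 2 of 7 SF WT oocytes.

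The size of the genotype difference was compared between the forms. The EAF KO minus EAF WT difference was -31.0 points for the 7-11 form, -13.3 for the 9-11 form and -12.5 for the 9-34 form. Without EAF KO replicate 1, the value for the 9-11 form was -7.35 points. With CpGs weighted by their reads the values were -30.9 points for the 7-11 form, -21.8 for the 9-11 form and -13.7 for the 9-34 form. The SF KO minus SF WT difference was -13.7 points for the 7-11 form, -6.61 for the 9-11 form and -2.66 for the 9-34 form. For the 9-11 form it was -11.1 points without SF KO replicate 1 and -1.91 without SF KO replicate 3. For the 9-34 form it was -8.65 points without SF KO replicate 1 and 1.21 without SF KO replicate 3.

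The 9-11 minus 7-11 difference within an oocyte averaged 31.6 points in EAF KO, 13.9 in EAF WT, 24.7 in SF KO and 17.6 in SF WT oocytes. With CpGs weighted by their reads the difference was 16.7 points in EAF KO, 7.57 in EAF WT, 15.2 in SF KO and 6.65 in SF WT oocytes.

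**Figure D3:**
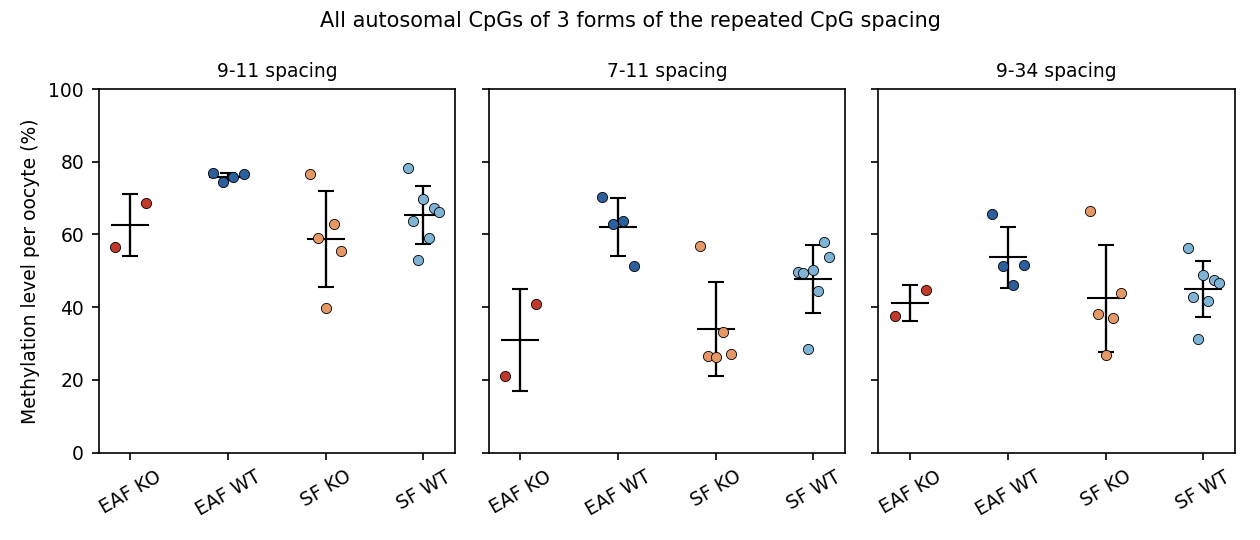
Mean methylation level per oocyte (%, vertical axis) over all autosomal CpGs of the 9-11, 7-11 and 9-34 spacings, by group. Points are oocytes, bars are means and whiskers SDs over oocytes. The 7-11 spacing is at 21.1% and 40.9% in the EAF KO oocytes, where the 9-11 spacing is at 56.6% and 68.6%.

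Position within the repeated unit was followed by counting bases from the first CpG of the spacing. The copies shared CpGs beyond the 7 that define the form, 3 bp before the first CpG and, in the 9-11 form, 86, 88 and 96 bp after it. In the 7-11 form those later CpGs stood 84, 86 and 94 bp after the first, which is the shift given by its shorter second distance.

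The 7-11 form had its lowest level among its defining CpGs at the CpG 37 bp after the first. That CpG averaged 17.3% in EAF KO and 49.0% in EAF WT oocytes, and 24.3% in SF KO and 33.5% in SF WT oocytes. The corresponding CpG of the 9-11 form, 39 bp after the first, averaged 59.1% in EAF KO, 67.0% in EAF WT, 55.8% in SF KO and 59.4% in SF WT oocytes. At 84 bp the 7-11 form reached 48.1% in EAF KO, 75.1% in EAF WT, 59.1% in SF KO and 66.3% in SF WT oocytes. The CpG 26 bp before the first was the lowest in EAF oocytes of the 9-11 form, at 31.4% in EAF KO and 47.6% in EAF WT. At each of the defining CpGs of both forms the mean was lower in KO than in WT oocytes at both stages. Some of these differences were small against the SDs, as at 28 bp in the 9-11 form, with 63.4% ± 16.9 in SF KO and 65.9% in SF WT. The shared CpG at 96 bp of the 9-11 form was higher in SF KO, at 75.4% against 70.2% in SF WT. In the 9-34 form the SF KO mean was higher at the defining CpG at 70 bp, with 40.8% against 39.8%, and at 88 and 96 bp. At the other defining CpGs of that form it was lower.

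**Figure D4:**
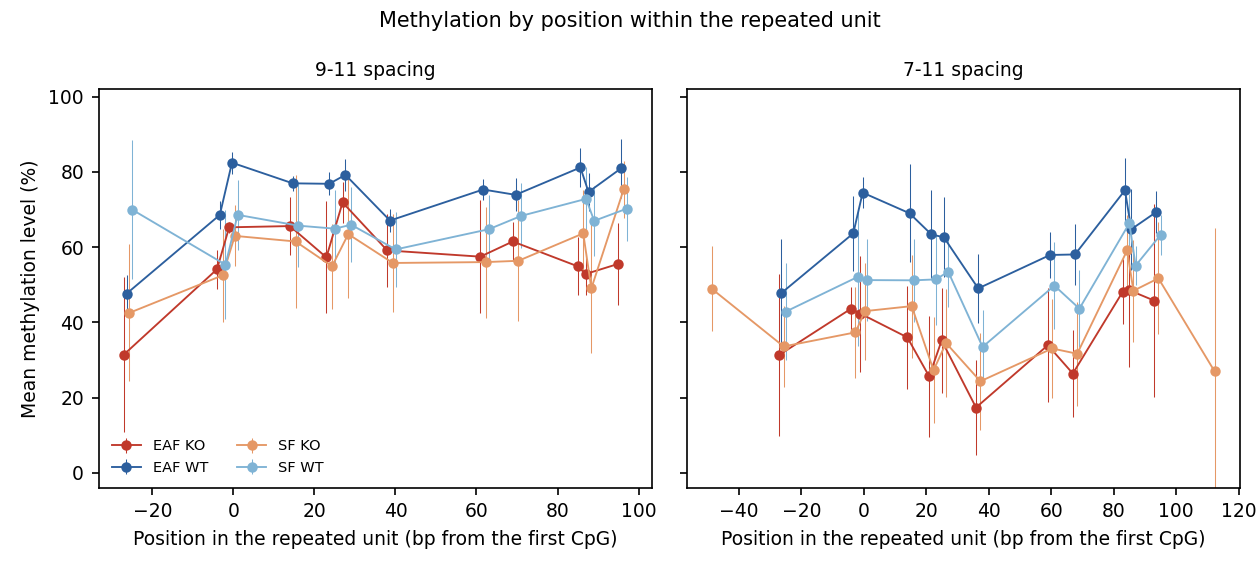
Mean methylation level (%, vertical axis) at each CpG position of the repeated unit, in bp from the first CpG of the 9-11 or the 7-11 spacing, for positions present in at least 30% of the copies. Points are means over oocytes and whiskers SDs over oocytes, drawn side by side. In the 7-11 spacing the level is lowest among the defining CpGs at 37 bp, at 17.3% in EAF KO and 49.0% in EAF WT.

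Members were gathered in few places. The 306 CpGs fell into 75 regions, runs of members with neighbours at most 500 bp apart, of which 25 held 1 member and 16 held 5 or more. The 3 largest regions held 103 members. Chromosome 14 held 93 members, chromosome 16 held 53 and chromosome 1 held 27. Without the 3 largest regions the mean over members was 46.0% in EAF KO and 69.6% in EAF WT oocytes, and 45.4% in SF KO and 60.2% in SF WT oocytes. The differences were then -23.5 points at the EAF and -14.7 points at the SF stage.

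Of the regions with 5 or more members, 10 were read in at least 2 oocytes of each group, and all 10 belonged to the family. Each carried 1 form only, the 9-11 form in 5 regions with 125 members and the 7-11 form in the other 5 with 33 members. Regions of the 9-11 form averaged 64.7% to 71.7% in EAF KO and 81.6% to 88.1% in EAF WT oocytes, and 63.6% to 68.6% in SF KO and 68.9% to 79.2% in SF WT oocytes. Regions of the 7-11 form averaged 17.2% to 44.7% in EAF KO and 72.2% to 82.4% in EAF WT oocytes, and 31.8% to 47.6% in SF KO and 52.1% to 62.0% in SF WT oocytes. For forms and single regions, EAF WT oocytes were scored on all their CpGs or members, those they helped to choose included. The ranges of the forms did not overlap in EAF KO, SF KO or SF WT oocytes. In EAF WT oocytes, which the rule used, they overlapped.

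The largest region, at mm9 chr16:27423924-27424958, held 40 members. Its mean was 65.6% and 68.8% in EAF KO oocytes and 86.1%, 84.9%, 92.1% and 84.1% in EAF WT oocytes. It was 84.5%, 66.5%, 56.7%, 70.7% and 64.7% in SF KO oocytes, against a range of 60.5% to 88.9% and a median of 72.6% in the 7 SF WT oocytes. The SF genotypes overlapped there, and SF KO replicate 1 was the highest KO oocyte.

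Both next largest regions lay on chromosome 14. The region at chr14:39355588-39356416, with 32 members, averaged 64.7% in EAF KO, 83.1% in EAF WT, 66.8% in SF KO and 79.2% in SF WT oocytes. The region at chr14:116632426-116633048, with 31 members, averaged 65.6% in EAF KO, 81.6% in EAF WT, 68.3% in SF KO and 73.5% in SF WT oocytes. A region with 12 members at chr14:29001972-29002388 averaged 66.1% in EAF KO, 88.1% in EAF WT, 63.6% in SF KO and 68.9% in SF WT oocytes. A region with 10 members on chromosome 18 completed the 9-11 form, at 71.7% in EAF KO, 82.2% in EAF WT, 65.4% in SF KO and 75% in SF WT oocytes.

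Among the 10 regions, those of the 7-11 form were lower in KO oocytes. The region at chr4:8325332-8325397, with 7 members, had 30% and 33.9% in EAF KO oocytes, against 97.1%, 68.7% and 73.5% in the 3 EAF WT oocytes that read it. In SF KO oocytes it had 60.2%, 20.9%, 23.1%, 38.5% and 16.7%, against 45.6%, 59.9%, 52.4% and 59.1% in the 4 SF WT oocytes that read it. The SF KO oocytes other than replicate 1 lay below those WT oocytes.

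The region at chr14:122924881-122925110, with 7 members, had 25.3% and 45.6% in EAF KO oocytes, against 80.9%, 86.0%, 77.8% and 53.5% in EAF WT oocytes. Its SF KO levels were 69.3%, 33.1%, 33.4%, 44.4% and 37.7%, and its SF WT levels ran from 20.7% to 68.1% with a mean of 52.1%. The SF genotypes overlapped there. The region at chr6:39876132-39876426, with 8 members, averaged 44.0% in EAF KO, 82.4% in EAF WT, 36.9% in SF KO and 61.1% in SF WT oocytes. The region at chr1:73370713-73371005, with 5 members, averaged 44.7% in EAF KO, 76.4% in EAF WT, 47.6% in SF KO and 53.9% in SF WT oocytes.

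A region with 6 members on chromosome 18 varied widely between oocytes of a group. It had 2.38% and 31.9% in EAF KO oocytes and 88.8% and 55.7% in the 2 EAF WT oocytes that read it. In SF KO oocytes it had 54.2%, 78.5%, 7.87% and 4.17%, and in SF WT oocytes 71.4%, 6.67%, 70.1% and 100%. Both SF genotypes thus held oocytes near 0 and oocytes above 70%.

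The 16 regions outside the family were read in fewer oocytes and were chosen for description after their values were seen. Levels there were close to 0 or 100% in many single oocytes. At chr10:80049306-80049380, 6 members were at 100% in both EAF WT oocytes that read them. They were at 0%, 0%, 16.7% and 0% in 4 SF KO oocytes, against 83.3% and 14.3% in 2 SF WT oocytes. This region lay 24751 bp from a match of the Rexo1 promoter and 3657 bp from one of Abhd17a, a depalmitoylase gene.

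At chr16:5885555-5885603, 7 members were at 100% in both EAF WT oocytes that read them and at 0%, 0.227% and 1.14% in 3 SF KO oocytes. At chr9:65219725-65219769, 7 members were at 100% and 91.4% in 2 EAF WT oocytes and at 14.3% and 28.6% in 2 SF KO oocytes. Neither region was read in an SF WT or EAF KO oocyte, so stage and genotype cannot be told apart there.

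Other regions outside the family were methylated in KO oocytes as well. At chr16:19928865-19928905, 6 members were at 82.8% in 1 EAF KO oocyte and at 100% and 91.2% in 2 EAF WT oocytes. They were at 75.8% and 51.3% in 2 SF KO oocytes and at 52.4% and 50% in 2 SF WT oocytes. The pair of members at chr11:3093486-3093513 was read in 17 of the 18 oocytes. It had 70.1% and 86.4% in EAF KO oocytes, against 76.6% to 98.5% in EAF WT oocytes. In SF KO oocytes it had 70.7% to 98.0%, and in SF WT oocytes 6.67% to 100%, where the lowest value rests on 15 counts at 1 CpG. This pair lay 8823 bp from a match of the promoter of Eif4enif1, which encodes a partner of the translation factor eIF4E.

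**Figure D5:**
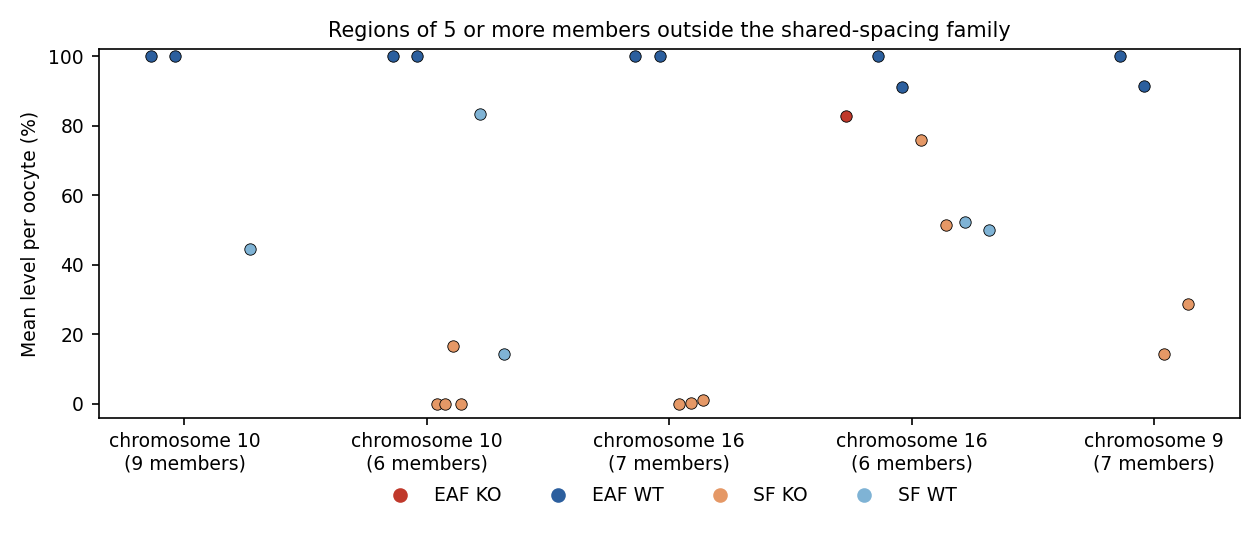
Mean level per oocyte (%, vertical axis) in the 5 regions with 5 or more members outside the shared-spacing family, each point being an oocyte that read them. The EAF WT oocytes lie at 91.2% or above because the rule chose them so, while 6 of the 7 SF KO oocytes at the chromosome 10 region with 6 members and the chromosome 16 region with 7 members lie near 0.

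No member lay in a RefSeq promoter that could be placed among the listed CpGs. Promoters of GRCm38.p6 were matched by the order and distances of their CpGs on the same chromosome. At least 8 CpGs had to match, and 6133 matches were found, against 36 for the same sequences reversed. A match was then kept if its offset from the promoter's GRCm38.p6 start lay near the median offset of neighbouring matches. Coordinates of that build were used in this last step only. Of 287 members on chromosomes with promoters in the table, 0 lay in the 6026 matched windows that were kept, against 1788 of 8407 CpG-dense sites at 10% or below (21.3%). Of these members, 235 were in the family and 52 outside it. The unmethylated dense sites thus lay at the start of a gene in part, and no member was placed there. Promoters without a match are not covered by this count.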

How the data were processed

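Per the labels' protocols, nuclear DNA of each oocyte was cut with MspI, treated with bisulfite and amplified by PCR. BSMAP 2.89 and mm9 are named in the submitters' processing notes. Each CpG listed has a total read count and a methylated read count in the deposited tables, per the file headers. The deposited ratio is a fraction, methylated over total count, per the file headers. How the authors filtered or treated reads that map to several places is not given in the sources used here. Conversion of the added lambda DNA was not analysed here.

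A level is the methylated count over the total count at a CpG with at least 5 reads. An oocyte's level averages its CpGs with equal weight, and a group's is the mean over its oocytes. Summed counts take a read once at each CpG it spans, and PCR copies are not independent molecules. The members, classes and regions were chosen with earlier results of these data known. Groups were described and not tested, since every library holds a single cell and the labels give no animals. Named regions were those with most members and, among the 10 regions read in at least 2 oocytes of each group, those with the lowest and highest SF difference, EAF KO mean and SF WT mean. Because there are only 10, the rule took in all of them. Gene lists planned for an mm9 annotation were not used. Recurrence was counted over listed CpGs only, so an unlisted CpG breaks a run. Promoters came from RefSeq GRCm38.p6, 250 bases before to 50 bases after the start, and no coordinates were converted. Those on chromosome 18 were not used here. Alternatives changed the read minimum, density and level limits, the weighting and the oocytes included. The steps were tested on simulated data. The scripts ran in Python 3.11.15 with pandas 2.3.3, numpy 2.4.6 and matplotlib 3.10.9.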

Additional observations from a re-analysis of the deposited data

Results flagged for a closer look

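SF KO replicate 1 had a level of 56.7% over the CpGs of the 7-11 spacing, where the other 4 SF KO oocytes had 26.2% to 33.2%. The gap to the nearest of them was 0.771 of the range of the group, which is wide for 5 samples. Chance flags about 1 in 20 groups, and 18 groups of 4 to 10 oocytes were looked at. The SF difference of this spacing was -19.4 points without the oocyte and -13.7 points with it.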

How the results depend on the processing

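The negative genotype differences over the members kept their sign under every alternative that gave a value (a density of 20 did not at every comparison), reaching -28.2 points, when EAF WT oocytes were scored on sites they helped to choose, at the EAF stage, and -25.1 points, over members outside the shared-spacing family, at the SF stage. Those 2 settings gave 15.6 and 17.7 points for the WT stage difference. The first gave -14.4 points for the stage by genotype contrast and 0.728 points for the EAF difference at unmethylated dense sites. The second, which leaves out CpGs within 1 kb of the family, gave 6.26 points for that contrast, 23.9 points for the KO stage difference and 17.8 points for the SF gap between dense and CpG-poor methylated sites. It was added after seeing the data and rests on few CpGs. Other settings made the SF genotype difference at members smaller than the main value of -13.8 points. It was -5.93 points over CpGs read in every oocyte compared and -9.74 weighted by reads. At 10 reads per CpG it was -9.89, and with 3 EAF WT oocytes required it was -10.0.

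The KO stage difference, near 0, reversed to -0.107 points at 10 reads per CpG, -0.809 at a level limit of 60%, -0.898 with 3 EAF WT oocytes required, -1.46 with regions weighted equally and -1.79 over CpGs read in every oocyte. The gap between dense and CpG-poor sites was 25.7 (EAF) and 17.0 (SF) at 1 read, 23.5 and 40.6 at 10 reads, and at the EAF stage -8.63 with 3 EAF WT oocytes required and 2.30 over CpGs read in every oocyte. At unmethylated dense sites the SF difference was 1.58 at a density of 10, 1.43 with 3 EAF WT oocytes, 2.33 weighted by reads, -0.186 with regions weighted equally and 4.09 over CpGs read in every oocyte. The EAF difference there was -2.74 at 10 reads, -3.39 at a density of 10, -2.65 with 3 EAF WT oocytes, -0.287 weighted by reads, -2.72 with regions weighted equally and 3.85 over CpGs read in every oocyte. The causes were not tested.

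The count of members lower by 50 points in SF KO was 11 of 265 compared, against 27 of 507 at 1 read, 2 of 165 at 10 reads, 44 of 1255 at a density of 10, 0 at a density of 20, where 0 were compared, 0 of 199 with 3 EAF WT oocytes and 32 of 265 at 30 points. In EAF KO it was 17 of 186, against 87 of 364, 3 of 78, 83 of 687 and 0 of 0 under the first 4 of these, 6 of 163 with 3 EAF WT oocytes, 72 of 186 at 30 points and 8 of 107 at a level limit of 80%. All of these settings but the limit of 30 points also change which CpGs are members and how many are compared. Weighted by reads, the EAF difference of the 9-11 spacing was -21.8 points, and the 9-11 minus 7-11 difference was 16.7 in EAF KO, 7.57 in EAF WT, 15.2 in SF KO and 6.65 in SF WT.

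With 1 oocyte left out at a time, the differences at members ran from -24.1 to -17.9 (EAF genotype), -17.9 to -10.8 (SF genotype), 6.97 to 12.3 (WT stage) and -1.84 to 5.38 points (KO stage), and the contrast from -12.9 to -3.06. The gap to CpG-poor sites ran from 20.4 to 49.2 (EAF) and 25.96 to 33.0 (SF), and unmethylated dense sites from -2.87 to -1.34 (EAF) and 0.188 to 0.805 (SF). The SF count ran from 2 to 12 and the EAF count from 13 to 17. The SF difference of the 9-34 spacing ran from -8.65 to 1.21. The EAF count needs both KO oocytes, so it has no value without either of them.

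Replicate numbers are shared by the groups, but only 1 of 13 same-number pairs had a correlation of deviations above 0.1 (range -0.0401 to 0.163), so they were not taken to pair oocytes. With the number as a block the differences were -23.2 (EAF) and -10.9 (SF) points and the KO stage difference -5.03. The contrast was -16.2 over the numbers present in all 4 groups, where the SF difference was -6.97 points.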
